A study of Mus musculus with 2 samples.

Results

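The 10 genes described here encode the subunits of the transcription factor AP-1: Jun, Junb, Jund, Fos, Fosb, Fosl1, Fosl2, Atf3, Batf and Batf3. They were taken by symbol from 21883 coding genes of the mouse RefSeq annotation (GRCm38.p6, the build mm10), and all 10 were found. Each gene was read with 50 kb of sequence on either side, and every open chromatin site deposited for that window was used. The assay was ATAC-seq, in which a transposase cuts and tags DNA that is not wrapped in nucleosomes, in AB22 cells, a mouse mesothelioma line. There were 2 libraries, 1 per group. Both groups were infected at a multiplicity of 20 with a pTRIPZ lentivirus and selected with 4 µg/mL puromycin, and both received 1 µM doxycycline, which switches the hairpin on, with use 7 to 10 days later at 5% oxygen as labelled. The shCTRL group carried a control hairpin and the shHMGB1 group a hairpin against Hmgb1, which encodes an abundant chromatin protein that bends DNA. The labels name no clone, give no irradiation dose, and give each group a single library, so no test between the groups was possible. No RNA or protein was analysed here, so neither the loss of HMGB1 nor the expression of any AP-1 gene was checked.

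Proteins of the AP-1 family bind DNA as dimers through a basic region and a leucine zipper. Jun proteins can pair with one another or with Fos proteins, whereas Fos proteins need a Jun partner; ATF3 and the BATF proteins pair mainly with Jun proteins. The dimers recognise TGANTCA, and dimers with ATF or CREB proteins recognise the longer TGACNTCA. Many of the family's genes are immediate-early genes, whose transcription starts within minutes of growth factor, stress or cytokine signals through MAP kinases. In mesothelial cells, Fos and Jun are known to respond to asbestos fibres, and the Fosl1 product Fra-1 has been linked to mesothelial transformation.

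The value used throughout is the pileup, the number of fragments stacked over a peak's summit, recovered from the fold enrichment in the deposited peak lists. The expected pileup was 2.79 fragments in shCTRL and 1.68 in shHMGB1, so the shHMGB1 library was shallower at 0.603 times that of shCTRL. The lowest pileup listed was 10 in shCTRL and 7 in shHMGB1, and a site below these could not be seen. The shCTRL list held 104336 peaks and the shHMGB1 list 92282. Intervals on pileups and ratios are 95% and cover counting error only: fragments were not marked by molecule, neighbouring summits share fragments, and 1 library has no replicate spread. A ratio of pileups is given as log2 of shHMGB1 over shCTRL, relative to the median of all summits of its class: gene starts (11321 coding genes with matched summits, raw median -0.21) or sites away from gene ends (68707 pairs, raw median -0.22). A site is called past 1.5-fold when this relative ratio is beyond 1.5 in either direction. Of 12 mesothelial marker genes, Msln and Pdpn had a peak at their start in both libraries, 4 had one in shCTRL alone, and 6, among them Krt8, Krt18 and Upk3b, had none. Fibroblast markers had a start peak in both libraries for 5 of 6 genes, against 1 of 7 leukocyte markers and 0 of 4 endothelial markers. A start peak in shCTRL alone was found for 2 leukocyte and 2 endothelial markers, and in shHMGB1 alone for 1 leukocyte and 1 fibroblast marker. Ptprc, which defines leukocytes, had none in either library. Over all coding genes, 52.9% had a start peak in both libraries.

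Of the 10 AP-1 genes, 9 had a peak within 1 kb of the start in shCTRL and 8 in shHMGB1. Over all coding genes the shares were 58.4% in shCTRL and 54.3% in shHMGB1. The 8 genes with a start peak in both libraries were Jun, Junb, Jund, Fos, Fosb, Fosl1, Fosl2 and Atf3, a state found for 52.9% of coding genes. Batf, whose product acts mainly in lymphocytes, had a start peak in neither library, as did 40.3% of coding genes. Batf3, known for its role in dendritic cells, had 1 start summit in shCTRL, of 13 fragments at 287 bp upstream, and none in shHMGB1, a state found for 5.48% of coding genes. At 13 fragments this summit was close to the lowest pileup listed in shCTRL, 10, and a difference between the libraries was not detectable at this depth.

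RefSeq promoter sequences, from 250 bases before to 50 after the annotated start, were at hand for 9 of the 10 genes. The promoters of 6 are shown because they span the range of start peaks seen: the very high peak of Jun, the moderate peaks of Fos, Atf3 and Junb, a peak that lay outside the promoter for Jund, and no peak for Batf. Capitals mark matches on either strand. The AP-1 site TGANTCA and the longer TGACNTCA were searched, as was the core of a cyclic AMP response element, TGACGT, which overlaps the longer form where the sequence reads on. The CCAAT box, a TATA box written as TATAAA, the CArG box bound by SRF and the MEF2 box were the others. The GC box GGGCGG was also searched and is not in capitals. The sequences are from GRCm38.p6, each 5′ to 3′ in the direction of its gene: Jun at chr4:95052173-95052472 on the minus strand, Junb at chr8:84978699-84978998 on the minus strand, Jund at chr8:70697489-70697788 on the plus strand, Fos at chr12:85473640-85473939 on the plus strand, Atf3 at chr1:191183284-191183583 on the minus strand and Batf at chr12:85686470-85686769 on the plus strand.
Jun: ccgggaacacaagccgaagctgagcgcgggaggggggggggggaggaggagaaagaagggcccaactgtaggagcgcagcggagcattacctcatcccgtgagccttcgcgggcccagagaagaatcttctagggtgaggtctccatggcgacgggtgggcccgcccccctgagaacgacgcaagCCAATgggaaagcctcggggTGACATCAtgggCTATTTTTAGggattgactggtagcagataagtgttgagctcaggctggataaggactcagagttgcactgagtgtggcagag
Fos: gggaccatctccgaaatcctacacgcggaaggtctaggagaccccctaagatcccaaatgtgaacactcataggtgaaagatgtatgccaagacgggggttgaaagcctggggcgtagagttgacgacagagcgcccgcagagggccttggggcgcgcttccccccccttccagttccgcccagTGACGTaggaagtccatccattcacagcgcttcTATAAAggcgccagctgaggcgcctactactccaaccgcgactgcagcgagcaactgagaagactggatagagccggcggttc
Atf3: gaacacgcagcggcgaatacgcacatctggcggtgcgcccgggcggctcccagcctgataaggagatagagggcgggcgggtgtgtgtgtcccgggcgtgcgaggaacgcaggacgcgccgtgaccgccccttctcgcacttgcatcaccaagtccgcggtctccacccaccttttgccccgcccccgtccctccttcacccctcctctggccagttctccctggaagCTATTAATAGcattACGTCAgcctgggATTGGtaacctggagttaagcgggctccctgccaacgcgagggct
Junb: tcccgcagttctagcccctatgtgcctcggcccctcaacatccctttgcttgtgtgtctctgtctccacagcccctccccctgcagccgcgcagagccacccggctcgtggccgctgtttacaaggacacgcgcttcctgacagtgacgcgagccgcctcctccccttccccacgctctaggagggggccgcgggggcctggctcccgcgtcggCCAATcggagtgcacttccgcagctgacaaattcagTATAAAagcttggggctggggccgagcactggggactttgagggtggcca
Jund: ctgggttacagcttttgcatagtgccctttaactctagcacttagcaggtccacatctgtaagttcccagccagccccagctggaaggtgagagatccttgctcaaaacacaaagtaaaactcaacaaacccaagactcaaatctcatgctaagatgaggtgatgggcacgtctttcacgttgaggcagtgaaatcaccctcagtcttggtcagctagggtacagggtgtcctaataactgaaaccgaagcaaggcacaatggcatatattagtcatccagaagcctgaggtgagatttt
Batf: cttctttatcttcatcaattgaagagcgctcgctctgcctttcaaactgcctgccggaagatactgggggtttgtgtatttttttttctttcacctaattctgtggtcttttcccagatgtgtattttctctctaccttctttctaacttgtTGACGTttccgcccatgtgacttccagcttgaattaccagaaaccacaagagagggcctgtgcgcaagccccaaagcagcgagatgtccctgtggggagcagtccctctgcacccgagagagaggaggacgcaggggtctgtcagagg

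The AP-1 site TGANTCA was in none of the 9 promoters, against 6.99% of 21262 coding promoters of the same length, and the CArG box was in none, against 1.52%. Only Jun held TGACNTCA, at -45 to -38 counted from the annotated start (8.75% of coding promoters). Fos held TGACGT at -66 to -61, Atf3 held it on the other strand at -8 to -3 and Batf at -98 to -93, which makes 3 of 9 against 8.49% of coding promoters. CCAAT was in Jun, Junb and Atf3 (38.2% of coding promoters). TATAAA was in Fos at -33 to -28 and in Junb at 1 to 6, not upstream of the annotated start (12.6%). The MEF2 box was in Jun at -33 to -24 and in Atf3 at -22 to -13 (2.74%). Jund, Fosb, Fosl2 and Batf3 held none of these, and GGGCGG was in 7 of 9 promoters (46.2% of coding promoters). These matches describe letters only and say nothing of which factor was bound.

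Base composition differed widely among the promoters. The ratio of observed to expected CpG was 0.594 in Jun, 0.666 in Junb, 0.775 in Fos, 0.735 in Fosb, 1.03 in Fosl2, 0.867 in Atf3 and 0.914 in Batf3. It was lowest in Jund (0.184, with 46.7% GC) and Batf (0.487, with 49.7% GC). Of coding promoters with a ratio of at least 0.6, 88.7% had a start peak in shCTRL and 84.2% in shHMGB1, against 30.4% and 27.0% of those below it. Within the family, genes with a start peak lay on both sides of 0.6. Jun, just under this cut, and Jund, whose start summits lay outside the promoter measured, were below it beside Batf, which had no start peak. Batf3, with a single weak start summit, lay above it. With so few genes, whether the ratio sorts them cannot be told. The promoter stretch itself, printed above or not, held a summit for Jun, Junb, Fos, Fosb and Atf3 in both libraries. That of Jund held none in either library, and that of Fosl2 held 1 of 10 fragments, in shCTRL alone.

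Jun, which encodes the c-Jun subunit and lies on chromosome 4 (95049036 to 95052222, minus strand), had by far the highest start peak of the family. The summit at 57 bp upstream of the start, which in shCTRL falls between the CCAAT box and the TGACATCA element of the promoter printed above and in shHMGB1 lies 66 bp upstream, just before the CCAAT box, held 191 fragments in shCTRL (165 to 220) and 189 in shHMGB1 (163 to 218). It stood at percentiles 98.5 and 98.3 of matched coding starts, whose median pileup was 44 in shCTRL and 38 in shHMGB1. The relative log2 ratio was 0.19 (-0.11 to 0.49), and -0.04 when set against starts of similar height. Summits at 100 bp into the gene (106 and 72 fragments) and at 701 bp (43 and 41) had ratios of -0.35 and 0.14. In all, 10 summits lay within 1 kb of the start in shCTRL and 7 in shHMGB1, with pileups of 23 to 191 and 27 to 189.

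Junb and Jund, the other Jun genes, had start peaks of ordinary height. Junb (chromosome 8, 84976909 to 84978748, minus strand) had its highest start summit at 11 bp upstream, with 45 fragments in shCTRL (32.8 to 60.2) and 23 in shHMGB1 (14.6 to 34.5). The relative ratio was -0.76 (-1.55 to -0.01), and Junb was the only AP-1 gene whose start interval excluded 0. It had 4 start summits in each library, of 11, 15, 27 and 45 fragments in shCTRL and of 7, 9, 14 and 23 in shHMGB1. Jund (chromosome 8, 70697739 to 70700616, plus strand) had no summit at the start itself: its start summits lay 758 and 855 bp into the gene, with 31 and 37 fragments in shCTRL and 13 and 20 in shHMGB1. The higher had a ratio of -0.68 (-1.54 to 0.14) and the lower -1.05 (-2.10 to -0.07). The highest summit of the Jund gene lay just beyond, at 1.13 kb, with 56 and 37 fragments and a ratio of -0.38 (-1.02 to 0.25).

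Among the Fos genes, start pileups were lower in shHMGB1 relative to the median start at Fosb, Fosl1 and Fos, with intervals that included 0, and close to it at Fosl2. Fos (chromosome 12, 85473890 to 85477274, plus strand) had 32 fragments in shCTRL at 37 bp upstream and 19 in shHMGB1, which gave -0.54 (-1.45 to 0.32). Its other matched start summit, at 248 bp upstream, held 25 in each library, a ratio of 0.21. Fosb (chromosome 7, 19302696 to 19310118, minus strand, start site at 19310045) had 43 and 23 fragments at 315 bp upstream, a ratio of -0.69 (-1.49 to 0.07). Its other start summits held 15 and 31 fragments in shCTRL and 22 in shHMGB1. Those of 31 and 22 lay within the promoter, where the gap between the libraries was smaller. Fosl1 (chromosome 19, 5447698 to 5455938), whose distances are counted from its lower coordinate, had 30 and 16 fragments 170 bp inside that end, a ratio of -0.70 (-1.67 to 0.22). Its other end held summits of 12 and 20 fragments in shCTRL and 10 in shHMGB1. Fosl2 (chromosome 5, 32136472 to 32157840, plus strand), which encodes Fra-2, had 54 and 44 fragments at 609 bp upstream, a ratio of -0.09 (-0.70 to 0.51). Within 1 kb of the start, Fosl2 had 6 summits in shCTRL and 4 in shHMGB1, and Fos had 3 and 6.

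Atf3 (chromosome 1, 191170296 to 191183333, minus strand), a stress-induced partner of Jun proteins, had 7 start summits in each library. The matched pair of highest combined pileup, 43 bp into the gene, held 48 fragments in shCTRL (35.4 to 63.6) and 40 in shHMGB1 (28.6 to 54.5), a ratio of -0.06 (-0.70 to 0.58). A summit 834 bp into the gene held 54 and 29 fragments, a ratio of -0.69 (-1.39 to -0.01). The intervals of these neighbouring summits overlapped. Batf (chromosome 12, 85686720 to 85709087) and Batf3 (chromosome 1, 191098414 to 191108943), both on the plus strand, had no matched start summit and no ratio.

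**Figure D1:**
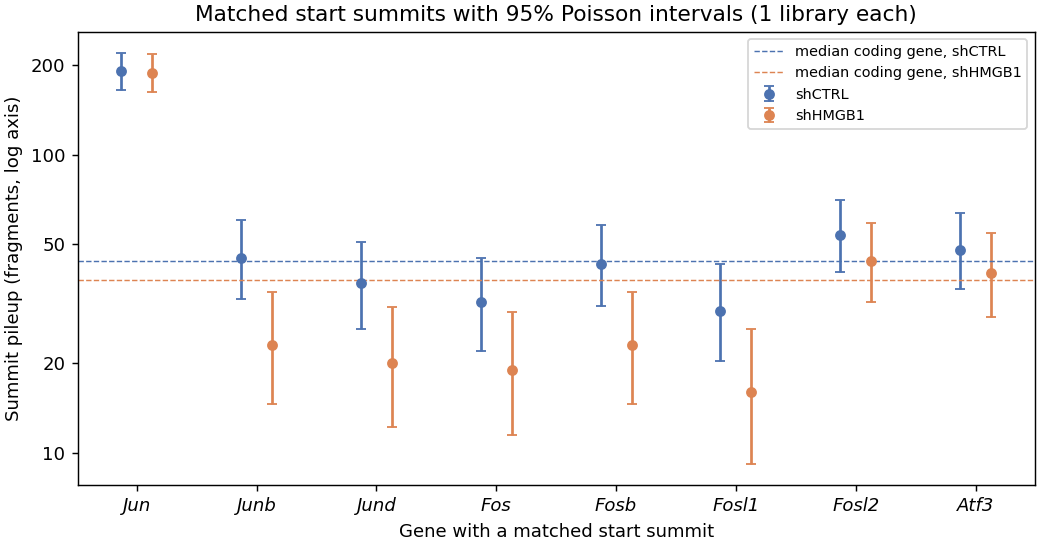
The vertical axis gives the summit pileup in fragments on a log scale for the matched start summit of each of the 8 AP-1 genes that had one, in shCTRL (blue) and shHMGB1 (orange), with 95% Poisson intervals and dashed lines at the median coding gene. Jun stands at 191 and 189 in the libraries, Junb, Jund, Fos, Fosb and Fosl1 lie below the shHMGB1 median of 38 in that library, and Fosl2 and Atf3 lie near the medians.

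Set against all coding genes, 4 of the 8 AP-1 genes with a matched start summit (Junb, Jund, Fosb and Fosl1) were past 1.5-fold lower in shHMGB1, and 0 were past it higher. Over the 11321 coding genes these shares were 9.39% lower and 4.48% higher, and among 4297 genes whose combined pileup lay between 46 and 98, the range of the AP-1 genes other than Jun, they were 10.2% and 4.75%. The median of the 8 ratios was -0.61, with 7 below 0, against 50% of coding genes. An interval that excluded 0 on the lower side was found for 1 of the 8 (Junb), against 2.75% of coding genes, and on the higher side for 0, against 6.55%. Of all 30 matched summit pairs within 1 kb of the AP-1 starts, 21 had a ratio below 0, 3 had an interval below 0 (at Junb, Jund and Atf3) and 0 had one above. The shares over all such pairs of coding genes were not computed. These ratios were set against the median of the highest pair per gene, so the weaker pairs had no background of their own.

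The count past 1.5-fold rested on the scale. Relative to starts of the same height decile, 1 gene, Junb at -0.64, was past 1.5-fold lower (5% of coding genes), although all 8 ratios were then below 0. With the deposited folds taken without centring, which moves the median of all starts to 0.30, 0 genes were past 1.5-fold lower, and Jun, Fosl2 and Atf3 turned to 0.48, 0.21 and 0.24. Taking the highest start summit of each library in place of matched summits left 4 of 8 lower (8.1% of coding genes) and 0 higher (3.8%), and moved Fos from -0.54 to -0.13. The interval of Junb, which ended at -0.01, then ended at 0.01. The 4 genes past 1.5-fold had no more than 45 fragments in shCTRL and 23 in shHMGB1, and for 3 of them a difference from the median coding gene was not detectable at this depth.

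Coding genes in the 1 Mb around each AP-1 gene gave the local level. Around Junb, 35 neighbouring starts had a median relative ratio of -0.09, with 14.3% past 1.5-fold lower. Around Fosl1, 65 starts had a median of -0.17, with 26.2% past 1.5-fold lower, so its ratio of -0.70 stood in a stretch where low ratios were common. Around Jund and Fosb the medians were 0.03 (62 starts) and -0.05 (31 starts), with 6.45% and 3.23% past 1.5-fold lower. For Jun, Fos, Fosl2 and Atf3 the local medians ranged from -0.04 to 0.12 over 4 to 16 starts.

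**Figure D2:**
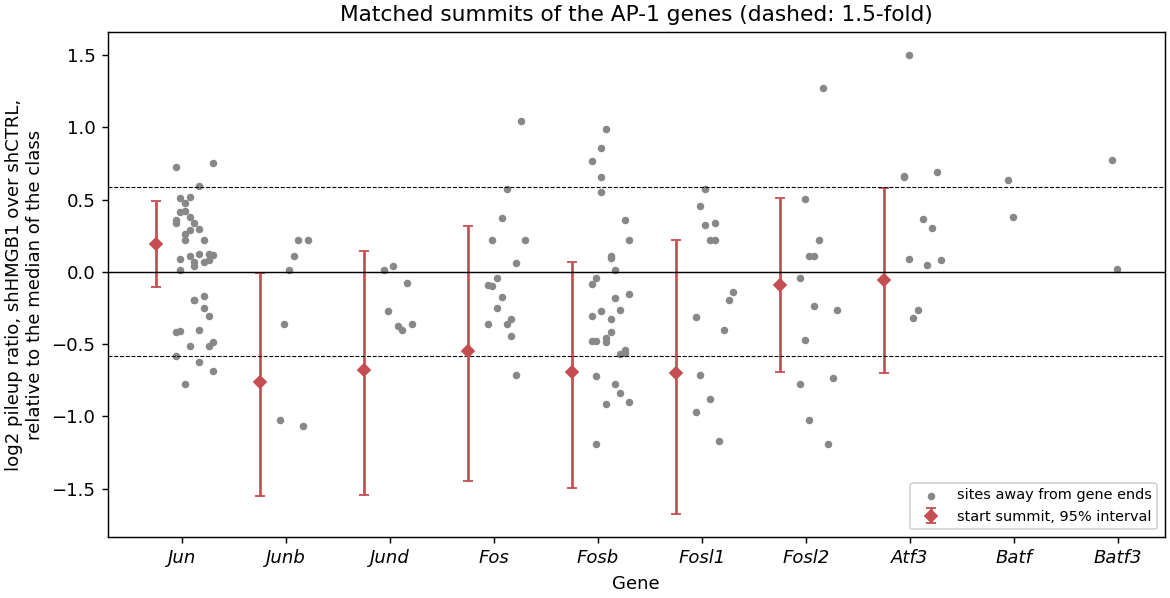
The vertical axis gives the log2 ratio of summit pileups, shHMGB1 over shCTRL, relative to the median of each class, for the start summit of each AP-1 gene (red, with its 95% interval) and for its 146 matched sites away from gene ends (grey points). The distal sites spread on both sides of 0, from -1.19 to 1.5, and the start interval of Junb is the only one below 0.

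Beyond the starts, the windows differed greatly in how many sites they held. The Fosb window had 58 peaks in shCTRL and 31 in shHMGB1, that of Fosl1 38 and 30, Jun 26 and 31, Junb 20 and 19, and Jund 17 and 12. Fos and Atf3 had 12 and 11 in each library, Fosl2 had 12 and 14, Batf3 had 7 and 5, and Batf had 4 in each. The median coding gene window held 7 in each library, so that only Batf, and Batf3 in shHMGB1, lay below it. Crowding by other genes varied as well: the Jun, Fos and Fosl2 windows held 0 other coding genes, and those of Junb, Fosb and Fosl1 held 8, 7 and 11. Jun, with no coding neighbour, still stood at percentiles 91.6 and 97.7 of coding gene windows by its number of peaks.

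Only at Fosb was the number of peaks at least 1.5 times as high in shCTRL, at 1.87 times, against 22% of coding gene windows. At 0 of the 10 was it at least 1.5 times as high in shHMGB1, against 13.5%. The 1 Mb around Fosb held 196 shCTRL and 132 shHMGB1 peaks, a ratio of 1.48, and the 1 Mb around Fosl1 held 285 and 182, a ratio of 1.57, against 1.13 for the whole lists. Summed over the 10 windows there were 204 and 168 peaks, a ratio of 1.21, and 1.07 without Fosb. The surplus in shCTRL lay among peaks of low -log10 q: at a value of at least 5 the counts were 105 and 108, and at 10 or more 70 and 73. The cut falls at unlike pileups, since 15 fragments in shCTRL gave 4.98 and 12 in shHMGB1 gave 5.17. The Atf3 and Batf3 windows overlap, and 1 peak of each library was counted in both.

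**Figure D3:**
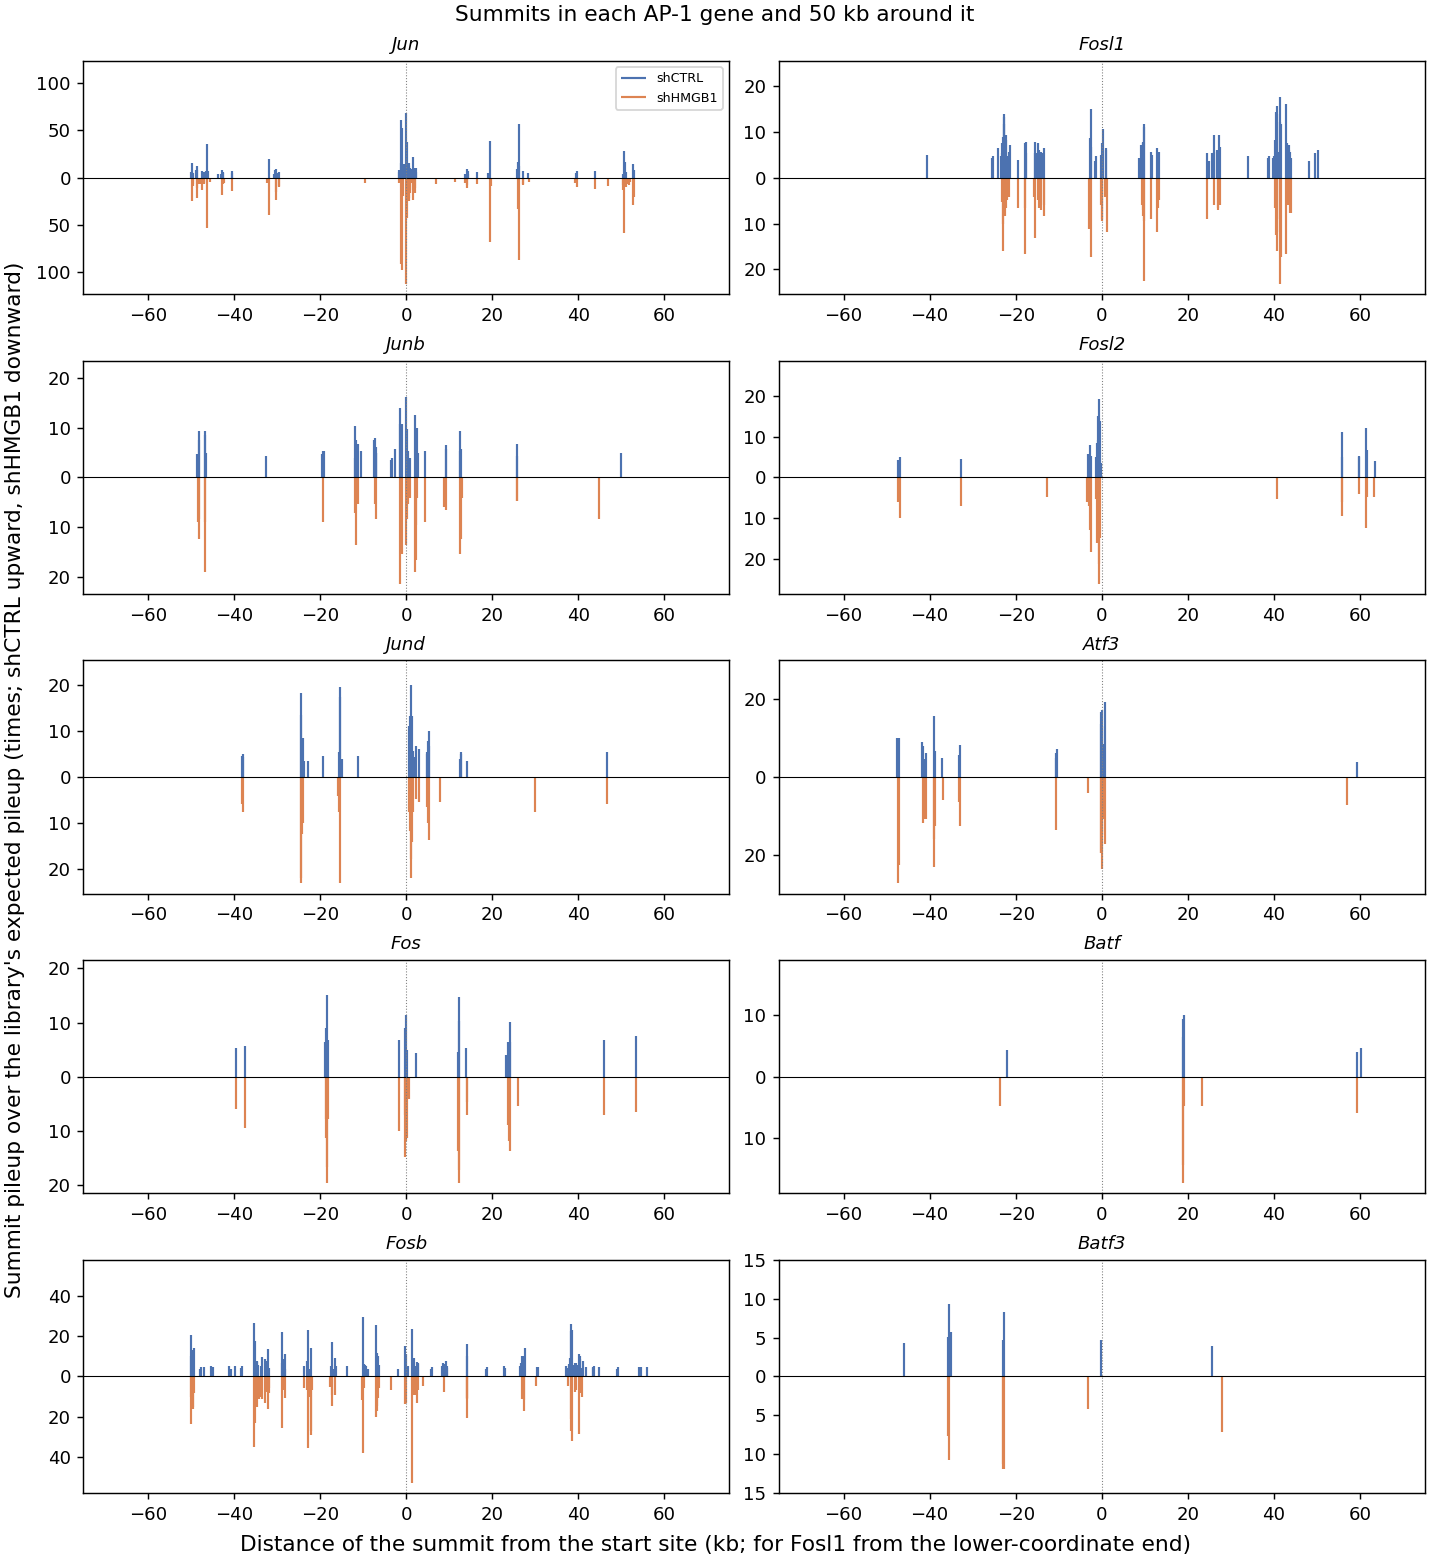
Each panel places the summits of 1 gene window by distance from the start site in kb, with the height as pileup over the library's expected pileup, shCTRL upward and shHMGB1 downward. The panels have their own vertical scales, and the smaller expected pileup of shHMGB1 (1.68 against 2.79) raises its heights, so positions, not heights, are to be compared; Jun shows clusters at its start and at 19.5, 26.1 and 50.6 kb downstream, and Batf has no bar at its start.

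Of the 204 peaks in shCTRL, 79 (38.7%, exact binomial interval 32.0 to 45.8) overlapped no peak of shHMGB1, close to the 39.9% of all shCTRL peaks. Of the 168 peaks in shHMGB1, 30 (17.9%, 12.4 to 24.5) overlapped none of shCTRL, below the 31% of all shHMGB1 peaks. Intervals on shares treat peaks or regions as independent draws and do not cover the spread between windows, and no difference in shares was tested. The Fosb and Fosl1 windows held 51 of the 79 unshared shCTRL peaks. Jun was the reverse, with 2 unshared in shCTRL and 8 in shHMGB1. Unshared peaks were weak, with median pileups of 13 (shCTRL) and 8.5 (shHMGB1) where shared peaks had 24 and 18, and the highest held 21 and 19. With only peaks of a deposited -log10 q of at least 5, the unshared share in shCTRL was 14.3%.

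At Fosb the strongest unshared peak of shCTRL lay 9.23 kb downstream of the start, with 21 fragments, and that of shHMGB1 lay 3625 bp upstream, with 11. At Fosl1 the shCTRL list had 20 fragments 21.3 kb below the gene, within AI837181, and the shHMGB1 list had 19 (11.4 to 29.7) at 3.00 kb below it, the strongest unshared shHMGB1 peak of the family. That shHMGB1 peak ended at 5444829, beside a shCTRL peak of 42 fragments that began at 5444831, so it was unshared only by its edge. The strongest unshared peaks of Jun held 11 fragments in shCTRL, 43.7 kb upstream, and 14 in shHMGB1, 46.8 kb downstream of the start. For Junb they held 16 in shCTRL, 2.57 kb upstream, and 14 in shHMGB1, within Mast1. Batf3 had 16 in shCTRL, 35.1 kb upstream, and 12 in shHMGB1 at a site 27.9 kb downstream that also lies in the Atf3 window. In the windows of Jund, Fos, Fosl2, Atf3 and Batf none exceeded 15 fragments.

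**Figure D4:**
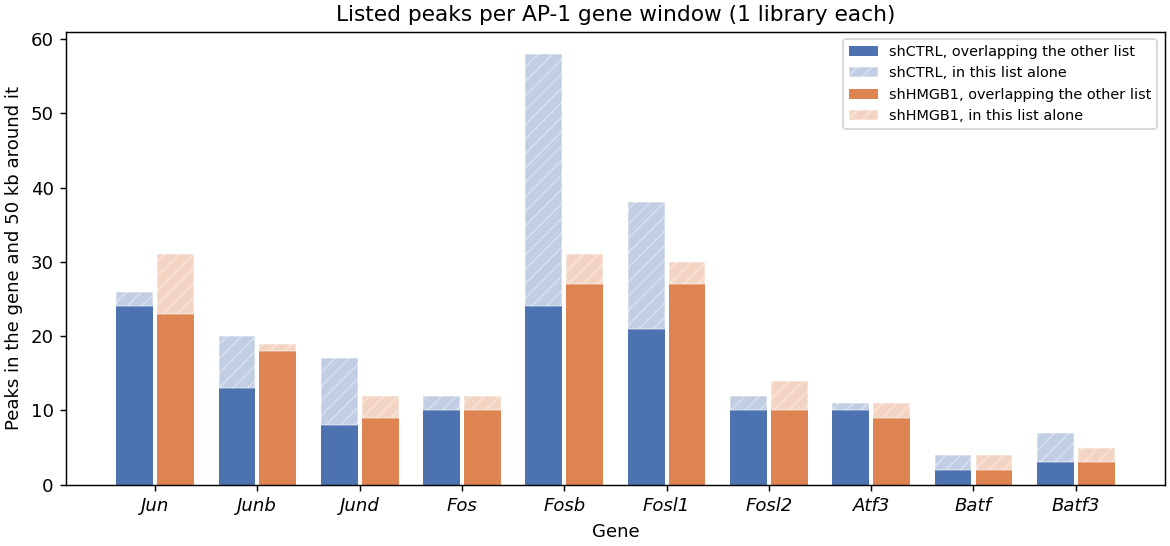
Bars give the number of listed peaks in each gene and 50 kb around it for shCTRL (blue) and shHMGB1 (orange), with hatched parts for peaks that overlap none of the other list. Fosb reaches 58 in shCTRL, of which 34 are unshared, against 31 in shHMGB1, and at Jun the hatched part is larger in shHMGB1 (8 against 2).

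Sites away from gene ends were matched between the libraries at 146 summit pairs. Their relative ratios had a median of -0.01 and ranged from -1.19 to 1.5. Past 1.5-fold higher in shHMGB1 were 15 (10.3%, against 11.2% of all such pairs) and past 1.5-fold lower were 21 (14.4%, against 12.5%). Intervals lay above 0 at 8 (5.48%, against 5.28%) and below 0 at 3 (2.05%, against 2.09%). The distal sites of the family as a whole were therefore at the genome's own shares in both directions.

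Jun had the most matched sites away from gene ends, with 42 pairs and a median ratio of 0.10. Its highest lay 1.14 kb upstream, with 171 fragments in shCTRL and 154 in shHMGB1 (0.07), and 26.1 kb downstream of the start, with 160 and 146 (0.09). Both were nearly as high as the start summit itself. The summits 1.14 and 1.05 kb upstream lay within the same listed peak as the start summit in each library (95049902 to 95053721 in shCTRL), so neither was a separate peak. At 1.05 kb upstream 147 and 164 fragments gave 0.38 (0.05 to 0.71), and at 50.6 kb downstream 80 and 98 gave 0.52 (0.07 to 0.96). At 30.2 kb upstream 27 and 39 gave 0.75 (0.01 to 1.52). Of these 3 sites with intervals above 0, those 1.05 kb upstream and 50.6 kb downstream had ratios of 0.09 and 0.23 when set against sites of the same height decile. Further high sites lay 19.5 kb downstream (110 and 115 fragments), 46.2 kb upstream (99 and 89) and 31.9 kb upstream (54 and 66), with intervals that included 0.

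Around Junb and Jund few distal sites could be matched, 7 each, and 0 had an interval that excluded 0. The highest at Junb, 1.37 and 1.09 kb upstream, held 39 and 36 fragments (0.11) and 30 and 26 (0.02), so that sites a short way from its start did not share the low ratio of the start summit. Near the far end of the gene, where no ratio was formed, a summit 2.44 kb downstream of the start held 28 fragments in shCTRL and 7 in shHMGB1, and another at 2.09 kb held 35 and 32. A further one at 7.27 kb upstream held 22 and 9 (-1.07, -2.37 to 0.11). At Jund a site 15.3 kb upstream held 55 and 39 fragments (-0.27), and one 1.28 kb into the gene held 37 and 24 (-0.40).

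Fos had 16 matched distal pairs with a median of -0.10. The highest, 18.5 kb upstream, held 42 and 28 fragments (-0.36, -1.11 to 0.36), and the next, 12.3 kb downstream of the start, held 41 and 33 (-0.09). A summit 12007 bp downstream held 13 and 23 fragments (1.05, 0.0039 to 2.15), beside others at 12.2 kb with 29 in each library. Both of the high sites exceeded the start summit in pileup, in either library.

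Fosb had sites with ratios of opposite sign, with intervals that excluded 0 on either side. In its own gene body, 1.36 kb into the gene, 66 fragments in shCTRL and 89 in shHMGB1 gave 0.65 (0.18 to 1.14). At 6.97 kb upstream, 71 and 34 gave -0.84 (-1.47 to -0.23). Within Vasp, a neighbouring gene for an actin regulator, a summit with 31 and 48 fragments (0.85, 0.17 to 1.55) lay next to one with 24 and 9 (-1.19, -2.48 to -0.04). The highest site of the window, 10.1 kb upstream, held 83 and 64 fragments (-0.15). Against sites of the same height the gene body site was at 0.36 and the upstream site at -1.13. Over 32 pairs the median was -0.29.

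Fosl1 had 14 matched distal pairs, a median of -0.17 and no interval that excluded 0. Its highest lay 2.54 kb below the gene, with 42 and 29 fragments (-0.31, -1.05 to 0.40), and sites at 17.7 and 15.4 kb below it held 22 and 28 and 22 in each library. Fosl2 had a pair of sites just upstream with opposite ratios: 2.58 kb upstream, 15 and 31 fragments gave 1.27 (0.34 to 2.26), and 1.19 kb upstream, 24 and 9 gave -1.19 (-2.48 to -0.04). Neighbouring summits narrowed both gaps: one 2.74 kb upstream held 22 in each library, and shHMGB1 had a further summit of 27 fragments 1.02 kb upstream. The body of Fosl2 more than 1 kb from its start held 0 summits in either library, and its other strong sites, with 34 and 21 (-0.47) and 31 and 16 fragments (-0.73), lay 61.4 and 55.7 kb downstream of the start.

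Among the 146 pairs away from gene ends, the highest ratio lay 47.3 kb upstream of Atf3, between genes, with 19 fragments in shCTRL (11.4 to 29.7) and 46 in shHMGB1 (33.7 to 61.4). Its relative ratio was 1.5 (0.70 to 2.35), and 1.28 against sites of the same height. A summit next to it, 47.2 kb upstream, held 28 and 38 fragments (0.66), and a further shCTRL summit of 28 fragments, 47.5 kb upstream, had no partner within 150 bp. The gap between the libraries was thus smaller at the neighbouring summits than at the single summit that led. The highest distal site of Atf3, 38.9 kb upstream, held 44 and 39 (0.05), and its gene body held 0 summits beyond 1 kb from the start in either library.

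Batf, which had no start peak, did have an open stretch inside the gene, 18.8 to 19.2 kb from the start. It held summits of 18, 26 and 28 fragments in shCTRL and of 24, 29 and 8 in shHMGB1. The matched pairs had ratios of 0.64 and 0.38 (-0.43 to 1.2 for the higher). Batf3 had matched distal sites only near Nsl1, 22.7 and 22.9 kb upstream, with 23 and 20 (0.02) and 13 and 19 fragments (0.77).

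Nucleosome-free regions, deposited as a separate list for each library, numbered 23 in shCTRL and 18 in shHMGB1 over the 10 windows, and 8 windows held at least 1 in shCTRL and 8 in shHMGB1 (65.8% and 62.3% of coding gene windows). Fosl2 and Atf3 had regions in shCTRL alone, and Batf and Batf3 in shHMGB1 alone. Only 5 of each overlapped one of the other library. The share without counterpart was 78.3% in shCTRL (56.3 to 92.5), against 60.4% of all regions, and 72.2% in shHMGB1 (46.5 to 90.3), against 56.2%. Widths ran from 57 to 395 bp in shCTRL, with a median of 172, and from 51 to 300 bp in shHMGB1, with a median of 160.5. The median nucleosome occupancy, a fraction estimated for each region, was 0.0575 and 0.0473, against 0.0592 and 0.0539 over all regions.

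Of the 5 shared regions, the Jun window held 2, at 26.1 kb downstream (245 and 232 bp wide, occupancy 0.0857 and 0.0532) and at its start, 34 to 36 bp into the gene (57 and 51 bp, occupancy 0.0388 and 0.0604). Fos held 1 at its upstream site 18.5 kb away (204 and 135 bp), Fosl1 held 1 centred 2598 bp below the gene in shCTRL (252 and 239 bp), and the Jund window held 1 at the start of its neighbour Lsm4 (395 and 202 bp). At Jun, regions centred 714 bp into the gene (112 bp wide) and 246 bp upstream (213 bp wide) were listed in shCTRL alone. A region 1509 bp into Jun (174 bp wide) was listed in shHMGB1 alone. At Fos, regions at the start itself, centred 319 and 29 bp upstream, were listed in shCTRL alone, as was one 668 bp upstream of Fosl2. Listed in shHMGB1 alone were regions 1085 bp upstream of Jun (300 bp), 1.45 kb into Fosb (77 bp) and 19.0 kb into Batf (123 bp, occupancy 0.0202), all at sites with summits in both libraries. A region listed in 1 library alone could therefore lie at a site with summits in both.

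The genes around AP-1 in its pathway gave a wider view of start sites, again as a description of 2 libraries. Over all coding genes, 52.9% had a start peak in both libraries. Of coding genes with a matched start summit, 9.39% were past 1.5-fold lower in shHMGB1 and 4.48% higher. Of 20 other leucine zipper genes that can pair with or compete against AP-1, 19 had a start peak in both libraries and Nrl, a retinal factor, had one in neither. Their median relative ratio was 0.08, with 1 past 1.5-fold lower (Atf1, 21 and 8 fragments, though its highest start summit in shHMGB1 held 13) and 0 higher, and the stress regulator Nfe2l2 (82 and 97, 0.45) had the only interval that excluded 0. The 6 genes for SRF and its cofactors all had a start peak in both libraries, with a median of -0.04 and 0 past 1.5-fold in either direction. Of 19 kinases that act upstream of AP-1, 16 had a start peak in both, Map2k6 had one of 11 fragments in shHMGB1 alone, and Rps6ka1 and Mapk10 had none. The kinases had a median of -0.38, with Map3k5 (27 and 12, -0.96) past 1.5-fold lower and 0 higher, though the highest start summit of Map3k5 in shHMGB1 held 17 (-0.45). Intervals above 0 were found for the JNK kinases Map2k4 (102 and 129, 0.55) and Map2k7 (91 and 108, 0.45) and for Mapk9, which encodes JNK2 (91 and 109, 0.47), each under 1.5-fold. Over all coding genes with a matched start summit, 6.55% had an interval above 0. Against starts of the same height decile, Nfe2l2, Map2k4, Map2k7 and Mapk9 were at 0.31, 0.32, 0.32 and 0.33.

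All 18 other immediate-early genes had a start peak in both libraries, a state found for 52.9% of coding genes. Their median ratio was -0.07, with Nr4a2 (72 and 97, 0.64, interval 0.18 to 1.1) past 1.5-fold higher and 0 lower. All 13 feedback phosphatases and inhibitors were likewise open in both, with a median of -0.06. Of these, Dusp1, Dusp2 and Spry4 were past 1.5-fold lower, against 9.39% of coding genes with a matched start summit. Only Dusp1, a phosphatase of stress kinases, had an interval below 0 (39 and 15 fragments, -1.17, -2.14 to -0.28). The highest shHMGB1 summit within 1 kb of the Dusp1 start held 16, but the peaks that reach into that stretch had a summit of 36 outside it, so the gap holds for the start itself and not for the whole peak. Dusp6, which acts on ERK, had one above 0 (135 and 160, 0.45). Of 18 known AP-1 target genes, 13 had a start peak in both libraries, Mmp9 had one of 13 fragments in shCTRL alone, and the matrix metalloproteinase genes Mmp13, Mmp3, Mmp1a and Mmp10 had none. The targets had a median of -0.02, with Il6 (13 and 20) and Ccnd1 (21 and 28) past 1.5-fold higher, Il11 past it lower, and the only interval that excluded 0 at Plaur (88 and 105, 0.46), which encodes the urokinase receptor. With the highest start summit of each library, Atf1, Map3k5, Dusp2 and Il6 (21 and 20) were no longer past 1.5-fold, while Elk3, Mapk3 and Vegfa were past it lower. Against starts of the same height decile, Nr4a2 was at 0.50, under 1.5-fold. Dusp6 and Plaur were then at 0.22 and 0.32, and Dusp1 at -1.02.

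The median of -0.61 of the AP-1 genes was lower than those of the 6 lists, and the difference between lists was not tested. It was -0.44 with the highest start summit of each library, where the list medians ran from -0.29 to 0.09. Among starts with a combined pileup of at least 60 it was -0.09 over 5 genes, above the -0.31 of the kinases over 12. Against starts of the same height the 6 medians ran from -0.27, for the kinases, to 0.04, for the targets, and that of the AP-1 genes was -0.46; the leucine zipper genes and the targets changed sign.

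**Figure D5:**
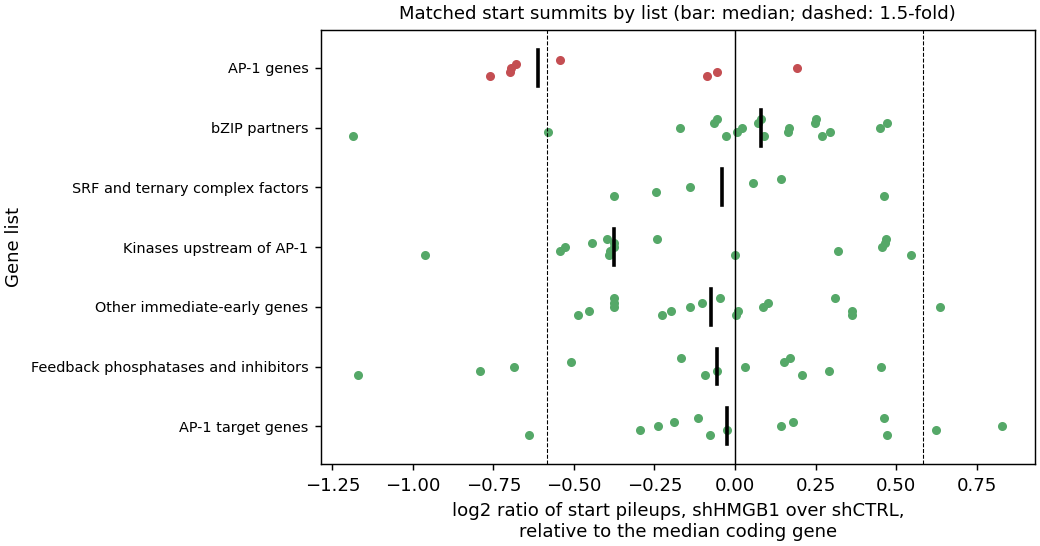
Points are matched start summits of single genes on the log2 scale, shHMGB1 over shCTRL relative to the median coding gene, by list, with a bar at each list's median and dashed lines at 1.5-fold. The 8 AP-1 genes (red) have a median of -0.61, and the medians of the other 6 lists lie between -0.38 and 0.08.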

How the data were processed

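The members and gene lists were chosen with earlier results of these data known. Per the submitters' processing notes, reads were handled with Trimmomatic 0.32, BWA 0.7.5-r404, SAMtools, bedtools and MACS2 on mm10. Which settings and filters were applied, whether cut positions were shifted, and how nucleosome-free regions were called is not given in the sources used here. Peaks had been called by the authors per library. The deposited peak lists hold, by their layout and values, a score (10 times the -log10 q), a fold enrichment over the expected pileup, a -log10 p and a -log10 q. The deposited nucleosome-free lists hold an occupancy fraction and an insertion signal per base, read from layout and values since no header names them.

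From these, pileups were computed by inverting fold = (pileup + 1)/(expected + 1), and 100% of summits came out whole within 0.001. A start is 1 kb around the RefSeq start site (17491 genes with strand) and otherwise around both annotated ends, as for Fosl1; the plan named ends. Libraries were paired by mutual nearest summits within 150 bp, and at each start the pair of highest combined pileup was taken. Peaks and regions overlapped when they shared at least 1 bp. Coordinates are 1-based. Intervals are exact Poisson for pileups, exact binomial for shares and conditional binomial for ratios. All AP-1 genes were named. So were, in each window, start summits, up to 3 of the highest matched sites, matched sites whose interval excluded 0 and the strongest unshared peak per library, and, from the lists, genes with a start peak in 1 library and those farthest past 1.5-fold with an interval that excluded 0; other list genes were named after their values were seen, and 1 is not reported here by name. Alternatives covered windows, start distance, peak strength, overlap, matching, centring and minimum pileup. The RNA-seq and DNA break maps of the study were not analysed here. Python 3.11.15, pandas 2.3.3 and scipy 1.17.1 were used, and the computations were tested on simulated data.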

Additional observations from a re-analysis of the deposited data

How the results depend on the processing

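No paired analysis was possible because each group has 1 library, and for the same reason no library could be left out. Of the alternatives, 35 left the main counts and shares within 1.5 times or within their interval, as did all 67 for single genes, and 0 turned the sign of a value past its threshold. All 45 alternative start ratios lay within the main interval, and 3 of them changed sign: Jun to -0.04 by height decile, and Fosl2 and Atf3 to 0.21 and 0.24 without centring. The others moved as follows, and the cause was not tested except where fewer sites were read. In windows of 20 kb the peaks numbered 92 in shCTRL and 84 in shHMGB1, and in windows of 100 kb 321 and 257, against 204 and 168. At a -log10 q of at least 5 they numbered 105 and 108 and at 10 or more 70 and 73, which turned the order of the libraries; the shCTRL share without counterpart was then 14.3% and 10.0%, and the shHMGB1 share at 10 or more 9.59%. With a reciprocal overlap of 50% the shares were 53.4% and 43.5%. AP-1 starts past 1.5-fold lower numbered 1 by height decile, 0 without centring and 2 at a combined pileup of 60, against 4. Window sites past 1.5-fold higher numbered 9 by height decile, 35 without centring, 5 at a combined pileup of 60 and 6 within 20 kb, against 15. Those lower numbered 7 without centring, 2 at a combined pileup of 60 and 9 within 20 kb, against 21. Nucleosome-free regions numbered 15 and 10 within 20 kb (3 overlapping in each library) and 40 and 33 within 100 kb (9 overlapping in each), against 23 and 18 with 5 overlapping. Depth limits what can be seen: sites under 10 fragments in shCTRL or 7 in shHMGB1 are not listed, the intervals of 7 of the 8 AP-1 start ratios included 0, and no replicate gives the spread between cultures.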

Other observations

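The windows of Fosb and Fosl1 also hold starts of other genes whose pileups differed between the libraries. Cd3eap, which encodes a subunit of RNA polymerase I, had a start summit 49.4 kb upstream of Fosb with 39 fragments in shCTRL and 14 in shHMGB1, a relative log2 ratio of -1.27 (-2.27 to -0.36), although another of its summits held 57 and 40 (-0.30). The start of Ercc1, a DNA repair nuclease gene next to it, held 75 and 59 fragments (-0.14, -0.66 to 0.37), and that of Vasp held 64 and 54 (-0.04). Below Fosl1, summits at the starts of Drap1, a transcriptional repressor gene, and AI837181 held 33 and 14 (-1.03, -2.05 to -0.09) and 26 and 9 fragments (-1.32, -2.60 to -0.18). The highest summits there, within 1 kb of both starts, held 39 in shCTRL and 27 in shHMGB1. On its other side Mus81, which encodes a structure-specific DNA nuclease, had 1 start summit of 34 and 15 fragments (-0.97, -1.96 to -0.06) and another of 49 and 39 (-0.12, -0.77 to 0.51). Cfl1, the gene for the actin-severing protein cofilin, held 45 and 28 (-0.48, -1.21 to 0.24). These genes were picked after their values were seen, 1 library per group gives no test, and summits of the same start did not share one ratio.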
